A study of Mus musculus with 8 samples.

Results

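The 10 genes described here encode the troponin subunits and the tropomyosins of striated muscle. They were chosen by name from the 47643 genes of the deposited expression table, with earlier results of these data known. The troponin genes are *Tnnt1*, *Tnnt2* and *Tnnt3* (troponin T), *Tnni1* and *Tnni2* (troponin I), and *Tnnc1* and *Tnnc2* (troponin C). The tropomyosin genes are *Tpm1*, *Tpm2* and *Tpm3*. All 10 were found, and all 10 were among the 14229 genes with a mean level high enough to be tested. RNA was sequenced from quadriceps (quad) muscle of 4 *Nup210*-/- mice and 4 *Nup210*+/+ mice, all on the C57BL/6 background, with 1 library per mouse. *Nup210* encodes a transmembrane protein of the nuclear pore complex. The *Nup210*-/- line is a constitutive knockout in which Cre driven from the Hprt locus removed the loxP-flanked exon 2 of *Nup210* in all tissues, so the deletion was not limited to muscle fibers. The age and sex of these mice were not given in the sources used here. The comparison addresses whether loss of this nuclear pore protein alters the thin filament genes that distinguish fast from slow muscle fibers.

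Troponin and tropomyosin sit on the actin thin filament and switch contraction on and off. Troponin C binds calcium, troponin I holds the filament in the inhibited state, and troponin T anchors the complex to tropomyosin, the coiled coil that covers the myosin binding sites on actin. Fast and slow fibers use different genes for the same subunit, so that *Tnnt3*, *Tnni2* and *Tnnc2* mark fast fibers, *Tnnt1*, *Tnni1* and *Tnnc1* mark slow fibers, and *Tnnt2* is the troponin T of heart and of embryonic skeletal muscle. *Tpm1* encodes the alpha-tropomyosin of fast fibers, *Tpm3* that of slow fibers, and *Tpm2* the beta-tropomyosin found in both, while all 3 genes also give rise to non-muscle forms through other promoters and exons.

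Levels were deposited as TPM, a measure corrected for transcript length that gives each gene as a part of the whole library. How many reads stood behind a value is unknown, and errors below are therefore those between mice. For the test of genotype, TPM were first scaled between libraries by a median ratio and then compared with limma on log2(scaled TPM + 1), with adjusted p-values over all 14229 genes. Over all genes, 16 passed an adjusted p of 0.05, 7 higher and 9 lower in *Nup210*-/- muscle, and 2 higher and 12 lower when TPM were taken as deposited. *Nup210* itself was not lower in the libraries labelled *Nup210*-/-, at 8.81 to 11.93 TPM against 5.71 to 10.11 TPM (log2 fold change 0.44, adjusted p = 0.231), and a value per gene does not show whether exon 2 was present. The library of *Nup210*+/+ replicate 2 carried 381.7 TPM of granulocyte precursor transcripts against at most 2.12 TPM in any other library. Leukocyte transcripts, summed over 10 marker genes, reached 123.1 to 140.5 TPM in *Nup210*-/- muscle and 152.8 to 299.7 TPM in *Nup210*+/+ muscle, without overlap. Most of this sum was *Lyz2*, at 92.52 to 105.04 TPM in *Nup210*-/- and 116.65 to 232.69 TPM in *Nup210*+/+ muscle. Of 8 tested markers 6 were lower without overlap, against 6.87% of all genes. Of the 10 markers only *Cd79a*, of B cells, was at 0 in any library, in 3 of the *Nup210*-/- mice. At 0.07 to 0.34 TPM in the other 5 mice, it was too low to be tested. In bulk muscle, fewer cells or fibers of a type and less RNA per cell cannot be told apart. Skeletal muscle markers, among them *Ckm*, *Acta1* and *Ttn*, summed to 39860 to 47209 TPM, so the defining transcripts of the labelled tissue were abundant.

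Together the 10 genes made up 5.98 to 6.70% of all TPM in a library. Fast troponin T, *Tnnt3*, was the most abundant at 20478 to 23244 TPM, followed by *Tpm1* at 14602 to 17287 TPM, *Tnnc2* at 10129 to 11798 TPM, *Tnni2* at 9050 to 10219 TPM and *Tpm2* at 3746 to 5211 TPM. The slow genes came far below, with *Tpm3* at 106.9 to 229.9 TPM, *Tnnt1* at 93.0 to 200.2 TPM, *Tnnc1* at 82.1 to 195.9 TPM and *Tnni1* at 42.9 to 94.5 TPM. Cardiac *Tnnt2* was last at 1.14 to 2.42 TPM. Because TPM are per transcript length, these levels may be set beside each other, and within each of the 8 libraries the genes stood in this same order. Across libraries the ranges of *Tnnc2* and *Tnni2*, of *Tpm3* and *Tnnt1*, of *Tnnt1* and *Tnnc1*, and of *Tnnc1* and *Tnni1* overlapped between mice, although the first gene of each pair was the higher in 8 of 8 libraries, and the ranges of the other neighbours were separated. The lowest *Tpm2* value was 16.3 times the highest *Tpm3* value, and the lowest *Tnni1* value 17.7 times the highest *Tnnt2* value.

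**Figure D1:**
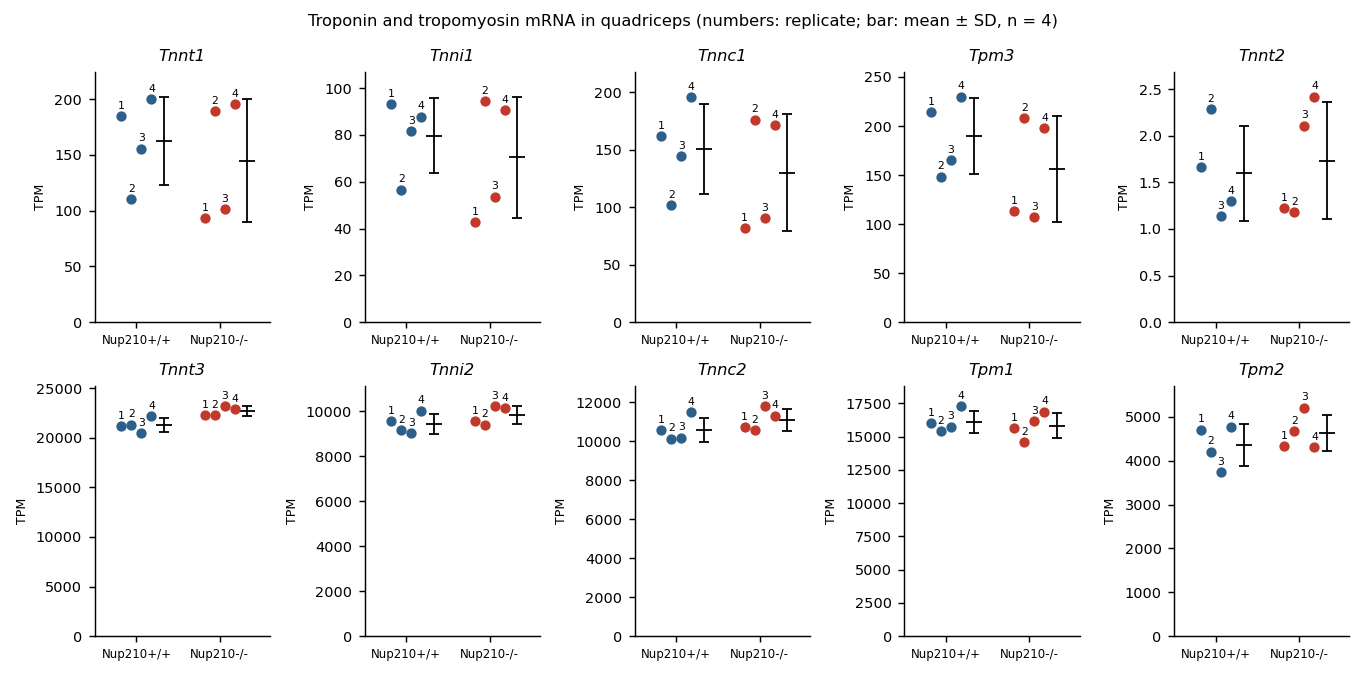
TPM of the 10 genes (y axis, from 0) in each quad library, by genotype on the x axis; numbers beside the points are replicates and black bars are the mean ± SD of 4 mice. The slow genes of the upper row split each genotype into higher and lower mice, with replicates 1 and 3 low in *Nup210*-/- and replicate 2 low in *Nup210*+/+, while the fast genes of the lower row vary little.

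No troponin or tropomyosin gene passed the test of genotype. In limma, 0 of 10 passed an adjusted p of 0.05, against 0.112% of all genes tested, and 0 of 10 reached an unadjusted p of 0.05, against 14.2% of all genes. Estimates were higher in *Nup210*-/- muscle for 6 genes (*Tnnt2*, *Tnnt3*, *Tnni2*, *Tnnc2*, *Tpm1* and *Tpm2*) and lower for 4 genes (*Tnnt1*, *Tnni1*, *Tnnc1* and *Tpm3*), with a median log2 fold change of 0.09 against -0.01 over all genes, of which 48.7% had a higher estimate. The 4 lower estimates were those of the 4 slow genes, and each of their intervals reached past 0 on both sides. The lowest adjusted p of the 10 was 0.415, for *Tnnt3*.

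**Figure D2:**
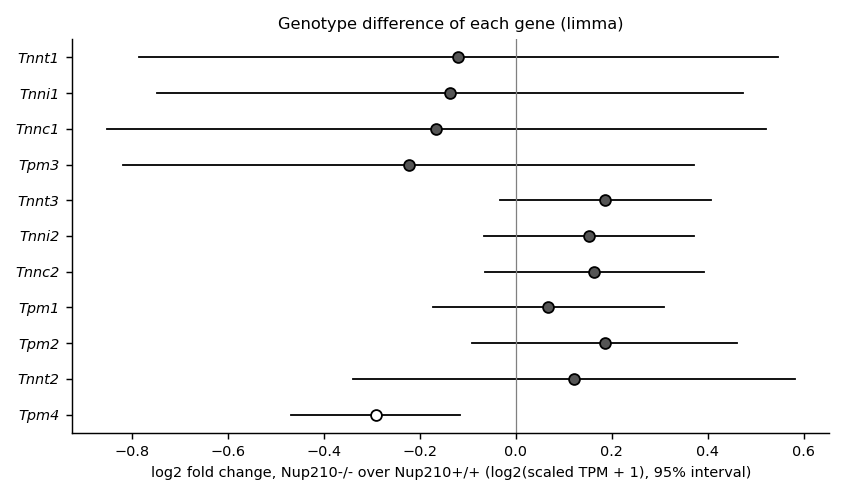
Log2 fold change of each gene in *Nup210*-/- over *Nup210*+/+ quad muscle on the log2(scaled TPM + 1) scale (x axis), with 95% limma intervals from 4 mice a genotype; *Tpm4*, a further tropomyosin gene, is the open point. All 10 intervals of the chosen genes cross 0, and those of the slow genes at the top are the widest, from -0.85 to 0.52 for *Tnnc1*.

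The start regions of the 4 slow genes are shown because these genes varied together between mice, with that of *Tnnc2* as a fast counterpart. Each line holds the 250 bases before the most upstream start that RefSeq gives on GRCm38.p6, read 5′ to 3′ on the strand of the gene, with every E-box (CANNTG), the short motif bound by myogenic factors such as MyoD, in capitals. The regions are chr7:4515976-4516225 (minus strand) for *Tnnt1*, chr1:135799171-135799420 (plus) for *Tnni1*, chr14:31208062-31208311 (plus) for *Tnnc1*, chr3:90072401-90072650 (plus) for *Tpm3* and chr2:164779735-164779984 (minus) for *Tnnc2*. Those of *Tnnt1* and *Tnni1* lie wholly, and that of *Tnnc2* mostly, inside the gene positions given below. These positions are from GENCODE and start farther upstream. Sequence farther upstream than each region was not searched for motifs.
Tnnt1: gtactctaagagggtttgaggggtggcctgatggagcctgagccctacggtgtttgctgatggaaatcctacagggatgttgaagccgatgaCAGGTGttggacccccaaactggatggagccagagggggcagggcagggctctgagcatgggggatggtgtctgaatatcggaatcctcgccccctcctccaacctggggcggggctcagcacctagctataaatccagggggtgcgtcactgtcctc
Tnni1: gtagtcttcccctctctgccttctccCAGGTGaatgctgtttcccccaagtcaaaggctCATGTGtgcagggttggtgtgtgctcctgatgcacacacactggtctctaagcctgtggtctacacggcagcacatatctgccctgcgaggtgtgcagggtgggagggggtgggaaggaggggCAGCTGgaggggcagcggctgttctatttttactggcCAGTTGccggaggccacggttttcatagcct
Tnnc1: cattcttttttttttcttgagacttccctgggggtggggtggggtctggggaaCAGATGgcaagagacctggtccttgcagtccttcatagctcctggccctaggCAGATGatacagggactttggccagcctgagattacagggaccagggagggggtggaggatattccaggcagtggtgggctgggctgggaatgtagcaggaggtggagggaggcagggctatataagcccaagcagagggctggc
Tpm3: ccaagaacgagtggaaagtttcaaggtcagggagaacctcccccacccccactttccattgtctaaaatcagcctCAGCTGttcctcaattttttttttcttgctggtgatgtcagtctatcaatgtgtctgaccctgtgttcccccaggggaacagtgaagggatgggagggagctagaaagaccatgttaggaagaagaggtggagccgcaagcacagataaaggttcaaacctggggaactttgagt
Tnnc2: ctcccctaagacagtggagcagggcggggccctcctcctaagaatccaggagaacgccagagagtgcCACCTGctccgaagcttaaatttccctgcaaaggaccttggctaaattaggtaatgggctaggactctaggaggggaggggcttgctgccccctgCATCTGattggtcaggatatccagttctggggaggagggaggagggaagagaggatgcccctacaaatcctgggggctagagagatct

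RefSeq start regions were at hand for 8 of the 10 genes, all but *Tnni2* and *Tnnt3*. Those of *Tpm1* and *Tpm2*, not printed, also lie mostly inside the GENCODE gene positions. An E-box, whose letters read alike on both strands, was present in 8 of 8, against 66.1% of 27025 mouse start regions of the same length, with 4 copies in *Tnni1* and in *Tnnt2*, 2 in *Tnnc1* and in *Tnnc2*, and 1 in *Tnnt1*, *Tpm1*, *Tpm2* and *Tpm3*. The M-CAT core CATTCC, read by TEAD factors, was present on either strand in 3 of 8 (*Tnnt2*, *Tnnc1* and *Tpm1*), against 12.6% of all. TATAAA on either strand was present in 1 of 8, 30 bases before the *Tnnt1* start, against 13.0% of all. The MEF2 motif was present in 0 of 8 against 3.03% of all, and the CArG box in 0 of 8 against 1.41%. No motif of these was held by the 4 slow genes and absent from *Tnnc2*.

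Among the troponin T genes, slow *Tnnt1* (chr7:4504570-4516382, GRCm38, minus strand) was at 92.99, 189.11, 101.65 and 195.39 TPM in *Nup210*-/- replicates 1 to 4. In *Nup210*+/+ replicates 1 to 4 it was at 184.76, 110.46, 155.66 and 200.17 TPM. Both genotypes held lower and higher mice, and the groups overlapped over nearly the whole range. The log2 fold change was -0.12 (95% interval -0.79 to 0.55, adjusted p = 0.883), which leaves room for a level between 0.580-fold and 1.46-fold that of *Nup210*+/+ muscle. The sign of this estimate depended on single mice, at 0.053 without *Nup210*-/- replicate 1, 0.039 without *Nup210*-/- replicate 3 and 0.029 without *Nup210*+/+ replicate 4.

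Fast *Tnnt3* (chr7:142498836-142516009, plus strand) was at 22327, 22283, 23244 and 22947 TPM in *Nup210*-/- replicates 1 to 4. Its *Nup210*+/+ values were 21197, 21335, 20478 and 22215 TPM. Every *Nup210*-/- mouse was thus above every *Nup210*+/+ mouse, narrowly so for 22283 against 22215 TPM, and *Tnnt3* was the only member of the 10 without overlap on TPM, against 1.54% of all genes that stood apart in this direction. An exact two-sided permutation test over the 70 labelings gave p = 0.0286 on TPM, the smallest these samples allow. After scaling between libraries 0 of 10 members stood apart, against 4.78% of all genes on the higher and 4.6% on the lower side. For *Tnnt3* the exact permutation p was then 0.0857, and limma gave a log2 fold change of 0.19 (95% interval -0.03 to 0.41, adjusted p = 0.415). The leukocyte transcripts given above also stood apart between genotypes, and their part in the TPM of *Tnnt3* was not tested.

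Cardiac *Tnnt2* (chr1:135836354-135852260, plus strand), which is silenced in skeletal muscle after birth, was at 1.22, 1.18, 2.11 and 2.42 TPM in *Nup210*-/- mice and at 1.66, 2.29, 1.14 and 1.3 TPM in *Nup210*+/+ mice. Each genotype held mice at both ends of this range, which was small in TPM but spanned 2.12-fold. It formed at most 0.0107% of the troponin T transcripts of a library, and its log2 fold change was 0.12 (95% interval -0.34 to 0.58, adjusted p = 0.816), or -0.0093 without *Nup210*-/- replicate 4. Cardiac troponin I, *Tnni3*, which lies 1.92 kb from *Tnnt1*, was at 0 to 0.68 TPM and was too low to be tested.

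Troponin I followed the same division. Slow *Tnni1* (chr1:135779434-135810989, plus strand) was at 42.91, 94.46, 53.62 and 90.57 TPM in *Nup210*-/- replicates 1 to 4 and at 93.08, 56.69, 81.50 and 87.82 TPM in *Nup210*+/+ replicates 1 to 4. The same 3 mice as for *Tnnt1* were lowest, and the genotypes overlapped. The log2 fold change was -0.14 (95% interval -0.75 to 0.47, adjusted p = 0.845), and 0.060 without *Nup210*-/- replicate 1. Fast *Tnni2* (chr7:142441808-142444410, plus strand) was at 9556, 9410, 10219 and 10159 TPM in *Nup210*-/- mice. In *Nup210*+/+ mice it was at 9560, 9163, 9050 and 10030 TPM. The 2 groups overlapped, with a log2 fold change of 0.15 (95% interval -0.07 to 0.37, adjusted p = 0.495).

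*Tnni1* lies 25.4 kb from *Tnnt2* on chromosome 1, and *Tnni2* lies 54.4 kb from *Tnnt3* on chromosome 7. Members of the first pair differed at least 24.8-fold in level in every library, the slow gene above the cardiac gene, while the fast pair kept a ratio of *Tnnt3* to *Tnni2* between 2.21 and 2.37 in all 8 libraries.

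For troponin C, *Tnnc1* (chr14:31208312-31211729, plus strand), the calcium sensor of both slow fibers and heart, was at 82.08, 176.26, 90.73 and 171.45 TPM in *Nup210*-/- replicates 1 to 4. In *Nup210*+/+ replicates 1 to 4 it was at 161.89, 101.69, 144.44 and 195.87 TPM. Again replicates 1 and 3 of *Nup210*-/- and replicate 2 of *Nup210*+/+ were lowest. The log2 fold change was -0.17 (95% interval -0.85 to 0.52, adjusted p = 0.831), and the estimate was 0.014 without *Nup210*-/- replicate 1 and 0.0097 without *Nup210*+/+ replicate 4. Fast *Tnnc2* (chr2:164777161-164779967, minus strand) was at 10735, 10566, 11798 and 11311 TPM in *Nup210*-/- mice and at 10560, 10129, 10186 and 11483 TPM in *Nup210*+/+ mice. The groups overlapped, with a log2 fold change of 0.16 (95% interval -0.06 to 0.39, adjusted p = 0.484). Exons of *Tnnc2* overlap those of *Ube2c* on the opposite strand, although the libraries kept strand.

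Of the tropomyosins, slow *Tpm3* (chr3:90072649-90100902, plus strand) was at 113.17, 208.38, 106.87 and 197.54 TPM in *Nup210*-/- replicates 1 to 4 and at 214.22, 148.44, 165.59 and 229.89 TPM in *Nup210*+/+ replicates 1 to 4. Its 3 lowest mice were those of the slow troponins, and the log2 fold change was -0.22 (95% interval -0.82 to 0.37, adjusted p = 0.728). Reads from retrocopies of *Tpm3* could share sequence with it. Of these copies, *Tpm3-rs7* was at 0.24 to 2.24 TPM and *Tpm3-rs2* was listed at 0.

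*Tpm1* (chr9:67022590-67049406, minus strand) was at 15665, 14602, 16143 and 16876 TPM in *Nup210*-/- mice. In *Nup210*+/+ mice it was at 16020, 15413, 15746 and 17287 TPM. The ranges nearly coincided, and the log2 fold change of 0.07 (95% interval -0.17 to 0.31, adjusted p = 0.805) became -0.027 with TPM as deposited. *Tpm2* (chr4:43514711-43523765, minus strand) was at 4337, 4672, 5211 and 4315 TPM in *Nup210*-/- mice and at 4709, 4209, 3746 and 4778 TPM in *Nup210*+/+ mice, a wider spread than that of the other abundant genes. The groups overlapped, and the log2 fold change was 0.18 (95% interval -0.09 to 0.46, adjusted p = 0.511). *Tpm1* and *Tpm2* also serve smooth muscle. Markers of smooth muscle and mural cells summed to 197.2 to 216.9 TPM in *Nup210*-/- and 195.6 to 236.5 TPM in *Nup210*+/+ muscle. Of this sum *Rgs5* alone held 101.57 to 138.77 TPM. *Acta2* was lower without overlap, at 14.13 to 15.55 against 18.98 to 26.28 TPM, as for 6.87% of all genes in this direction. Of 8 tested markers 6 had lower and 2 higher estimates, with 0 past the test. Their part in the *Tpm1* and *Tpm2* values was not tested. A TPM per gene does not separate muscle from non-muscle tropomyosins.

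*Tpm4*, a largely non-muscle tropomyosin that was not among the 10 genes, stood apart between genotypes. It was at 32.74, 35.22, 30.94 and 33.39 TPM in *Nup210*-/- mice and at 46.64, 38.56, 48.26 and 41.10 TPM in *Nup210*+/+ mice. All *Nup210*-/- mice were below all *Nup210*+/+ mice, as for 6.87% of all genes in this direction, yet the log2 fold change of -0.29 (95% interval -0.47 to -0.12) did not pass the test over all genes (adjusted p = 0.170). The leukocyte sum was likewise lower in every *Nup210*-/- library, with lower estimates in 8 of 8 tested markers and 0 of 8 past the test, and their part in the *Tpm4* values was not tested.

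Because a share within a library does not depend on scaling, the slow gene was also expressed as a percentage of its subunit. *Tnnt1* made up 0.634% ± 0.241 (SD, n = 4) of troponin T transcripts in *Nup210*-/- and 0.757% ± 0.172 (SD, n = 4) in *Nup210*+/+ muscle, and the exact permutation test gave p = 0.343. *Tnni1* made up 0.712% ± 0.268 and 0.835% ± 0.152 of troponin I (exact permutation p = 0.457). *Tnnc1* made up 1.16% ± 0.469 and 1.39% ± 0.291 of troponin C (exact permutation p = 0.371). *Tpm3* made up 0.763% ± 0.277 and 0.912% ± 0.138 of tropomyosin (exact permutation p = 0.371), beside a *Tpm2* share of 19.1 to 24.3% over all libraries. In the 4 subunits the mean share was lower in *Nup210*-/- muscle, but the genotypes overlapped in each. No exact permutation p was under 0.05, and the 4 tests rest on the same 8 libraries.

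**Figure D3:**
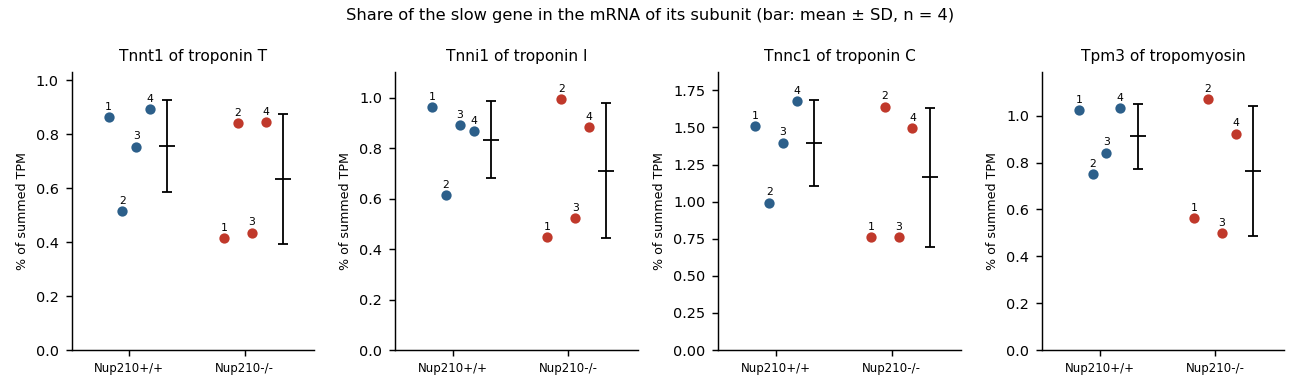
Share of the slow gene in the summed TPM of its subunit (y axis, percent, from 0) for each mouse, by genotype on the x axis; numbers are replicates and black bars the mean ± SD of 4 mice. In each panel *Nup210*-/- replicates 1 and 3 are the lowest of the 8 mice, and replicates 2 and 4 lie above 2 or more of the *Nup210*+/+ mice.

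The slow genes varied together between mice. *Tnnt1*, *Tnni1*, *Tnnc1* and *Tpm3*, the 4 slow genes whose start regions are printed above, each had their 3 lowest values in *Nup210*-/- replicates 1 and 3 and *Nup210*+/+ replicate 2, and none of the other 6 genes did. The fourth lowest value was 1.41 times the third for *Tnnt1*, 1.44 times for *Tnni1*, 1.42 times for *Tnnc1* and 1.12 times for *Tpm3*. Among other slow fiber genes the same 3 libraries were lowest in 9 of 11, including *Myh7*, the slow myosin heavy chain, and *Atp2a2*, the slow calcium pump, with *Myh7b* and *Myl6b* as the exceptions. In fast fiber genes this was so in 0 of 14, and over all genes tested in 1.91%. *Nup210*+/+ replicate 2 was the library with granulocyte transcripts. Without it, *Nup210*-/- replicates 1 and 3 were lowest in the 4 slow members and in 9 of 11 slow fiber genes. For genes whose 3 lowest libraries were already these, that outcome was fixed in advance. It therefore does not test the part of *Nup210*+/+ replicate 2. The granulocyte transcripts in *Nup210*-/- replicates 1 and 3 were at 0.90 and 0.31 TPM.

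Relative to each other the slow genes were steady. *Tnnt1* spanned 2.15-fold and *Tnnc1* 2.39-fold over the 8 libraries, but their ratio stayed between 1.02 and 1.14. The ratio of *Tnnt1* to *Tnni1* stayed between 1.90 and 2.28, and that of *Tpm3* to *Tnnt1* between 1.01 and 1.34. The coefficient of variation over 8 libraries was 27.1 to 30.9% for the 4 slow genes, 32.1% for *Tnnt2*, 9.84% for *Tpm2* and 4.24 to 5.67% for *Tnnt3*, *Tnni2*, *Tnnc2* and *Tpm1*.

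**Figure D4:**
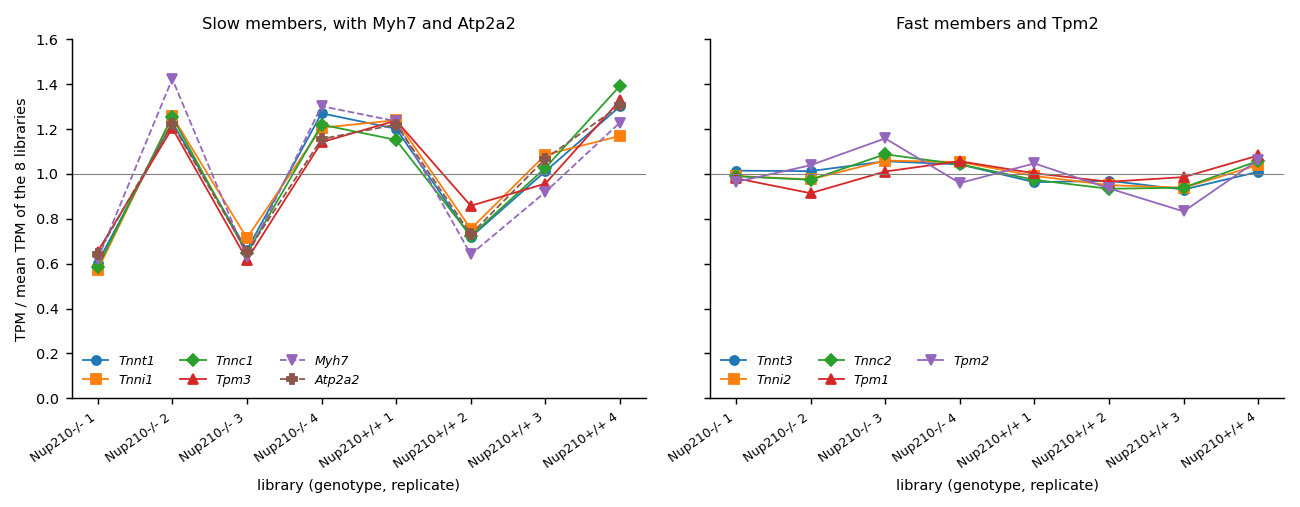
TPM of each gene divided by its mean over the 8 libraries (y axis) for each library (x axis); solid lines join the values of members and dashed lines those of *Myh7* and *Atp2a2*. The slow genes on the left fall together in *Nup210*-/- replicates 1 and 3 and in *Nup210*+/+ replicate 2, whereas the fast genes on the right stay close to their mean.

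Of 6076 genes with a mean of at least 10 TPM, those whose scaled levels followed *Tnnt1* most closely over the 8 libraries were *Atp2a2* (r = 0.991), *Myh7* (r = 0.979), *Mgrn1* (r = 0.969), *Csrp3* (r = 0.945) and *Kremen1* (r = 0.941). *Atp2a2* and *Myh7* were also first and second with TPM as deposited, where *Mgrn1* ranked 152. These coefficients describe 8 libraries of which the 3 low ones carry most of the spread, and are given without a test. *Mgrn1* spanned only 19.05 to 23.19 TPM and *Kremen1* 19.96 to 25.44 TPM, whereas *Csrp3*, a muscle LIM protein of slow fibers, spanned 117.4 to 205.3 TPM.

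The genes closest to *Tnnt3* were *Ppm1a* (r = 0.992), *Aamdc*, *Ppp3cb*, a catalytic subunit of calcineurin, *Dram2* and *Nap1l4* (r = 0.980). With TPM as deposited they ranked 1, 2, 3, 9 and 64 in this order. The genes closest to *Tnnt2* were *Rabac1* (r = 0.951), *Phf5a*, *Bloc1s6*, *Pih1d1* and *Slc35b1* (r = 0.898). These ranked 20, 14, 1, 46 and 109 with TPM as deposited, so most of the *Tnnt2* list depended on the scaling. *Tnnt2* itself was only at 1.14 to 2.42 TPM, and these coefficients too are given without a test. Scaled *Tnnt3* had a correlation of 0.966 with the inverse of the scaling factor of the library, and the same factor enters every gene compared with it after scaling.

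The fast genes varied little, and what variation they had was partly shared. *Tnni2* and *Tnnc2* had the most closely matched levels, with r = 0.990 (exact permutation p = 2.48e-05, adjusted p = 0.000558 over the 45 pairs of members) and rho = 1.00 (exact permutation p = 4.96e-05, adjusted p = 0.00112) after scaling. With TPM as deposited r was 0.972 (exact permutation p = 0.000645, adjusted p = 0.00647) and rho 0.881 (exact permutation p = 0.00724, adjusted p = 0.0815). Without the 2 libraries farthest from the median of *Tnni2*, r was 0.972 after scaling and 0.970 as deposited, and the ratio of *Tnnc2* to *Tnni2* stayed between 1.11 and 1.16. The 6 pairs among *Tnnt3*, *Tnni2*, *Tnnc2* and *Tpm1* had r between 0.816 and 0.990 after scaling but between 0.270 and 0.972 as deposited where the shared factor is absent. In all, 15 of the 45 pairs passed an adjusted p of 0.05, and 9 without *Nup210*+/+ replicate 3, which had the largest scaling factor. Of the 15, 6 were pairs of slow genes, 6 were pairs of fast genes and 3 were pairs with *Tpm2*. With TPM as deposited the 6 slow pairs passed, but of the fast and *Tpm2* pairs only *Tnni2* with *Tnnc2* did. Scaled *Tnni2* and *Tnnc2* had correlations of 0.942 and 0.906 with the inverse of the scaling factor. No pooled coefficient is given for the slow pairs because the same 3 libraries were lowest in each slow gene. The 16 pairs of a slow with a fast gene had r of 0.04 to 0.35, and 0 of 16 passed.

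Tropomyosin and troponin T differed in balance between mice. The ratio of *Tpm1* to *Tnnt3* was 0.697 ± 0.0329 (SD, n = 4) in *Nup210*-/- and 0.756 ± 0.0244 (SD, n = 4) in *Nup210*+/+ muscle, with overlap and without a test. The ratio of *Tpm1* to *Tpm2* ranged from 3.10 in *Nup210*-/- replicate 3 to 4.20 in *Nup210*+/+ replicate 3.

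Other genes of the fibers were examined beside the 10. The slow fiber list held 11 further genes, of which 0 passed the test, 3 had higher and 8 lower estimates in *Nup210*-/- muscle, and the median log2 fold change was -0.09, or -0.27 with library weights. Its extremes were *Myl6b* at 0.16 and *Myl3*, the slow and ventricular essential light chain, at -0.31. *Myl3* was at 287.1, 446.9, 297.2 and 493.0 TPM in *Nup210*-/- mice and at 599.4, 338.2, 508.4 and 567.3 TPM in *Nup210*+/+ mice, with the same 3 low libraries as *Tnnt1*.

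The fast fiber list held 14 further genes, and 0 of 14 passed an adjusted p of 0.05, against 0.0492% of all genes called higher. All 14 had higher estimates in *Nup210*-/- muscle, against 48.7% of all genes, with a median of 0.19. In limma 8 of 14 were at an unadjusted p under 0.05, against 14.2% of all genes. This was not particular to the fast list, with 8 of 15 thin filament partners and 8 of 19 fiber type regulators, both described below. With TPM as deposited 11 of 14 had higher estimates, with a median of 0.10 against -0.08 over all genes. Of the fast members, *Tnnt3*, *Tnni2* and *Tnnc2* had estimates of 0.15 to 0.19, and *Tpm1* had 0.07, or -0.027 with TPM as deposited. At the ends of the list stood *Casq1*, the fast calsequestrin, at 0.03 and *Mylk2*, the skeletal myosin light chain kinase, at 0.37 (adjusted p = 0.0592). *Mylk2* was at 575.0 to 626.9 TPM in *Nup210*-/- and 448.5 to 540.8 TPM in *Nup210*+/+ muscle. It was among 4 of the 14 that were higher without overlap on TPM, against 1.54% of all genes. Markers of skeletal muscle as a whole had higher estimates in 6 of 6 (5 with TPM as deposited), with a median of 0.23 and 0 past the test, and leukocyte markers lower estimates in 8 of 8. Their part in the fast fiber estimates was not tested.

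Of 15 thin filament partners of troponin and tropomyosin, 12 had higher and 3 lower estimates, with a median of 0.11, and with TPM as deposited 9 were higher. Only *Xirp1* passed the test in this list, against 0.0633% of all genes called lower. *Xirp1*, an actin-binding protein of the myotendinous junction that is also raised in injured fibers, was at 66.53, 68.68, 68.49 and 61.57 TPM in *Nup210*-/- mice and at 148.4, 110.5, 120.7 and 133.4 TPM in *Nup210*+/+ mice. It fell by 0.84 on the log2 scale (adjusted p = 0.0490), a call that was lost when any library was left out, at adjusted p of 0.0521 to 0.140 in limma. At the other end, *Nrap*, which links actin to the fiber ends, had an estimate of 0.27. *Acta1*, the actin of skeletal muscle, had an estimate of 0.22 (adjusted p = 0.351).

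**Figure D5:**
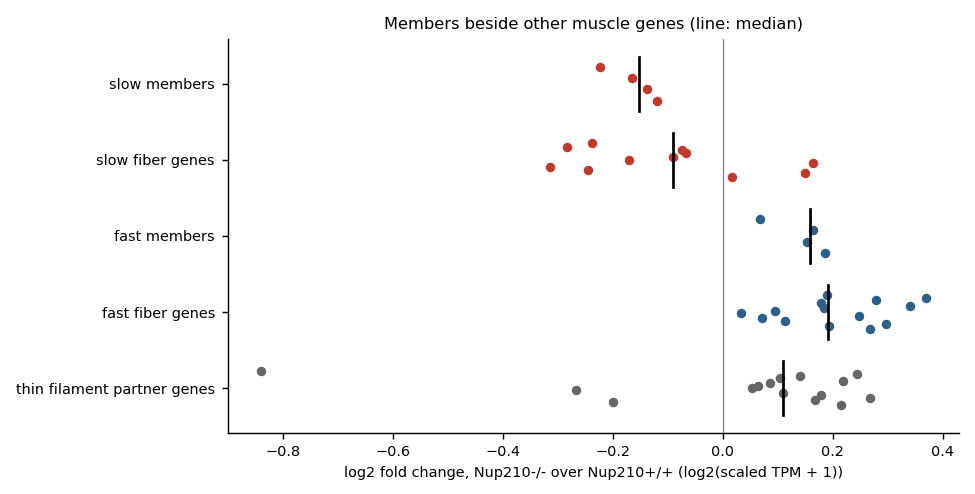
Log2 fold change in *Nup210*-/- over *Nup210*+/+ quad muscle (x axis, log2(scaled TPM + 1) scale) of the slow and fast members and of 3 further gene lists (y axis); each point is a gene and each black line the median of its row. Fast fiber genes lie between 0.03 and 0.37, slow fiber genes on both sides of 0, and *Xirp1* stands alone at -0.84.

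Regulators of fiber type were examined in the same way. Of 19 fiber type regulators, among them *Mef2c*, *Nfatc1* and *Tead1*, 0 passed the test and 13 had higher estimates (8 with TPM as deposited), from *Nfatc2* at 0.53 to the estrogen-related receptor gene *Esrrg* at -0.29. Of 7 myogenic factor genes 5 were tested, 3 with higher estimates, from *Myf6* at 0.13 to *Myog* at -0.27, and 0 passed. Of 9 cardiac and embryonic sarcomere genes, the partners of *Tnnt2*, only 3 were high enough to be tested, and perinatal *Myh8* at 0.22 and *Myl4* at -0.22 were their extremes, with 0 past the test. Smooth muscle and mural genes ran from *Lmod1* at 0.38 to *Acta2* at -0.41, with 0 of 8 past the test.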

How the data were processed

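RNA was sequenced from quad muscle of 4 *Nup210*-/- and 4 *Nup210*+/+ mice. Per the methods and the submitters' notes, the authors enriched poly(A) RNA, prepared strand-specific libraries, read 75 bases from a single end, trimmed with cutadapt 2.3, aligned to mm10 with STAR 2.7.0d and quantified Ensembl 84 genes with RSEM 1.3.1. They deposited TPM per gene and library, with replicates kept apart. TPM are relative to the rest of a library and keep no depth. The authors tested estimated counts with DESeq2, and those counts were not used here, so limma 3.58.1 in R 4.3.3 took the place of that test.

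TPM were scaled in each library by its median ratio to the geometric mean over 15225 genes above 0 throughout. Genes averaging 0.5 TPM or more were fitted on log2(scaled TPM + 1) with genotype as the only term, an intensity trend and Benjamini-Hochberg adjustment over all genes. Fold changes on this scale understate those of low genes such as *Tnnt2*. Shares and single genes were compared with two-sided exact permutation tests. The text names the 10 members, the genes past the threshold and the extremes of each list, the 5 genes most correlated with *Tnnt1*, *Tnnt2* and *Tnnt3* among those of at least 10 TPM, and *Nup210*. *Cd79a*, *Lyz2*, *Myh7b*, *Rgs5*, the *Tpm3* retrocopies and the genes given as examples of a list were named outside this rule, after their values were seen. The members and lists were chosen with earlier results of these data known. Positions are from GENCODE M21 on GRCm38, the mm10 build but a newer release than that of the authors, and start regions from RefSeq. The analysis was tested on simulated data. Figures were drawn with matplotlib 3.10.9. Alternatives were other pseudocounts, filters, scalings and variance models, library weights, a replicate block and each library left out. The likeness to *Tnnt1*, *Tnnt2* and *Tnnt3* with TPM as deposited, and the lowest libraries without *Nup210*+/+ replicate 2, were added after seeing the data.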

Additional observations from a re-analysis of the deposited data

Results flagged for a closer look

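In 56 groups of 4 mice examined for a single mouse far from the others, 1 stood out, where chance gives about 1 in 20. The summed TPM of 6 granulocyte precursor genes, among them *Elane*, *Mpo* and *Ctsg*, was 381.7 in *Nup210*+/+ replicate 2 and 0.31 to 2.12 in the other 3 *Nup210*+/+ mice. This library was also among the 3 with the lowest *Tnnt1*, *Tnni1*, *Tnnc1* and *Tpm3*, beside *Nup210*-/- replicates 1 and 3, whose sums were 0.90 and 0.31. A part of these cells in the slow gene values was not tested.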

How the results depend on the processing

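In no alternative did a member pass the threshold, the lowest adjusted p being 0.166, for *Tnnc2*. Signs reversed for *Tnnt1*, at 0.053, 0.039 and 0.029 without *Nup210*-/- replicate 1, *Nup210*-/- replicate 3 and *Nup210*+/+ replicate 4 (range over left-out libraries -0.31 to 0.053), for *Tnnt2* without *Nup210*-/- replicate 4 (-0.0093, range -0.0093 to 0.24), for *Tnni1* without *Nup210*-/- replicate 1 (0.060, range -0.30 to 0.060), for *Tnnc1* without *Nup210*-/- replicate 1 (0.014) and *Nup210*+/+ replicate 4 (0.0097, range -0.34 to 0.014), and for *Tpm1* with TPM as deposited (-0.027). Calls over all genes, 16 with 7 higher and 9 lower, became 1 (0 higher, 1 lower) with any TPM above 0, 0 at a mean TPM of 0.1, 27 (14 higher) at a mean TPM of 1, 0 with upper quartile scaling, 10 (2 higher) when scaled to the rest of the library, 0 without the trend and 84 (43 higher, 41 lower) with library weights; 2 were higher with TPM as deposited and 11 with a pseudocount of 0.1. Leaving out a library gave 0 to 10 calls, 0 to 2 higher and 0 to 8 lower. Library weights called 1 fast fiber gene, *Mylk2*. The call of *Xirp1* was lost (0 thin filament partners) with any TPM above 0, a mean TPM of 0.1, upper quartile scaling, no trend, the block and each left-out library (0 to 0). Correlated pairs, 15, became 7 with TPM as deposited and 9 to 14 with a library left out. The causes were not tested. Same-numbered mice had correlated deviations of only -0.0329 to 0.0857, and 1 of 4 *Nup210*-/- libraries correlated best with its own number. No pairing by number was evident, though so few mice cannot exclude one. A replicate block gave 0 calls, 0 higher and 0 lower, and 0 members. TPM without depth limit what the low *Tnnt2* can show.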
